A study of Rattus norvegicus with 9 samples.

Results

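The HoxA and HoxC genes described here are Hoxa5, Hoxa7, Hoxa9 and Hoxa10 of the HoxA cluster and Hoxc8 and Hoxc9 of the HoxC cluster. The 6 genes were chosen with earlier results of these data known. Their probe sets were taken by name: every probe set whose single gene symbol in the platform annotation was one of these 6 was used. This gave 6 probe sets, 1 for each gene, among 14217 genes and 31099 probe sets on the array. The arrays measured total RNA of Sprague-Dawley rat embryos at embryonic day 13 in 3 groups of 3 single-colour oligonucleotide arrays. The Wolffian duct (WD) is the paired tube of the embryo that gives rise to the ureteric bud (UB), the branching epithelium of the later collecting system. The remaining group, called WD with mesoderm, was the duct left in its coat of adherent mesodermal cells. RNA was pooled from about 100 tissues for a UB array, the same number for a WD array and about 50 for an array with mesoderm, and the labels give no mutation or drug. The UBs alone were freed by a light trypsin digestion, and in comparisons with the UB the effect of digestion cannot be told apart from that of tissue. Replicates are labelled as biological, and the p-values reflect differences among such pools.

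Hox genes encode homeodomain transcription factors that tell cells where they lie along the body axis. They sit in clusters, and their order along the chromosome follows the order in which they are used from head to tail. Hox proteins bind DNA together with TALE homeodomain partners of the Pbx and Meis families. In the urogenital system Hoxa9 and Hoxa10 pattern the reproductive ducts, Hoxa11 and its paralogs act in the kidney mesenchyme that calls out the ureteric bud, and retinoic acid and Cdx factors are known inducers of Hox genes.

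Promoter windows were available for 3 of the 6 genes in the RefSeq promoter table (build GRCr8), from 250 bases before to 50 bases after the gene's start. They are shown because these genes follow one another in the HoxA cluster and all had the tissue order given further on. All lie on the minus strand and are written 5′ to 3′ in the direction of the gene. The window of Hoxa7 is chr4:82648192-82648491, that of Hoxa9 chr4:82656999-82657298, and those of the 2 annotated starts of Hoxa10 chr4:82671441-82671740 and chr4:82665873-82666172. Capitals mark matches, on either strand, to the 7 motifs searched.
Hoxa7: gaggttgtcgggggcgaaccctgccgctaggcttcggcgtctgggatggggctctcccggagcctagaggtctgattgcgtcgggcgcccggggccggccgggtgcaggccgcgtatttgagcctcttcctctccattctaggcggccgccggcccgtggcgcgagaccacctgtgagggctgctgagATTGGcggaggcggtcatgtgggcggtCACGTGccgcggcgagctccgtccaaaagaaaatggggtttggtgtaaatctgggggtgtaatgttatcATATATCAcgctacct
Hoxa9: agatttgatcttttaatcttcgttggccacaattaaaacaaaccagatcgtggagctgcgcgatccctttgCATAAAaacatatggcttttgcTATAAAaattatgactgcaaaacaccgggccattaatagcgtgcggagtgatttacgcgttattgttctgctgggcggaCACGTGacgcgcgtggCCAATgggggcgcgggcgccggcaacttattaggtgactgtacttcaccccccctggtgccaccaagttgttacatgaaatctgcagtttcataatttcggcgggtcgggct
Hoxa10, upstream start: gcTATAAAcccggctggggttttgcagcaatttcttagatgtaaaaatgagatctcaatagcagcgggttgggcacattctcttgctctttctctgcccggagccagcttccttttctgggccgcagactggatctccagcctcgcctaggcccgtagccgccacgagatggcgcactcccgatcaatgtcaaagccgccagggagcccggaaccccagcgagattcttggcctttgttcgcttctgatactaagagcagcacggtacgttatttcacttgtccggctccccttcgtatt
Hoxa10, downstream start: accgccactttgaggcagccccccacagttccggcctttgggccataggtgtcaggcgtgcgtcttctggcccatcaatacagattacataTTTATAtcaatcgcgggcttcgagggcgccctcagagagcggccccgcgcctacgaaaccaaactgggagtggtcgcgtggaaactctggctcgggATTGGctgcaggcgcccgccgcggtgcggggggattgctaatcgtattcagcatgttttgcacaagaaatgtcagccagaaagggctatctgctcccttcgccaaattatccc
A CCAAT box (CCAAT, or ATTGG on the other strand) stood in 3 of these 4 windows and in 37.5% of all 33469 promoter windows in the table. Its leftmost base lay at -62 in Hoxa7, -62 in Hoxa9 and -63 at the downstream start of Hoxa10, counted from the start. A CCAAT box within 5 bases of -62 was present in 2.58% of all windows, a share computed after these positions had been seen. An E-box (CACGTG) stood in the windows of Hoxa7 and Hoxa9 and in 6.42% of all windows. The TATAAA motif was found at Hoxa9 and at both Hoxa10 starts (14.2% of all windows), the Cdx motif TTTATG at Hoxa9 (12.7%) and the combined Hox and Pbx motif TGATNNAT at Hoxa7 (9.10%). In Hoxa9 the matches of TATAAA and TTTATG did not overlap. The Meis motif TGACAG (19.0% of all windows) and the retinoic acid receptor half-site AGGTCA (16.2%) had no match in these letters. The windows held 29, 21, 18 and 22 CG pairs, in the order printed, against a median of 7 over all windows. In the same order, 88.5%, 77.4%, 72.5% and 79% of all windows held fewer. A match describes letters only, and the arrays do not measure binding.

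All arrays had a common trimmed mean near 2501 intensity units, and their median signals ran from 534 to 897. The bud markers Wnt11, Ret, Gfra1, Etv4 and Etv5 all rose in the UB against the WD, 5 of 5 tested bud tip genes. The WD arrays also carried mesenchyme signal. The summed signal of 12 mesenchyme genes was lowest in the UB (12683 to 17923), higher in the WD (106385 to 147833) and highest with mesoderm (257384 to 312835). The ratio of the spiked controls bioC and bioB split the arrays: it was 2.97 to 3.07 in the UB, 3.02 for replicate 3 with mesoderm, and 0.91 to 1.07 elsewhere (5 arrays). For beta-actin the 3′ to 5′ ratio, a sign of RNA integrity, was highest in the WD (2.19 to 4.87), followed by the UB (1.48 to 2.30) and the WD with mesoderm (1.47 to 1.92).

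All 6 genes were lowest in the UB, intermediate in the WD and highest in the WD with mesoderm, without any overlap between the arrays of the 3 tissues. Over all 20334 probe sets tested, 4.13% showed that complete order. The 6 genes were chosen with earlier results of these data known, so the shares over all probe sets describe them and do not test them. Every member passed the filter on low values, which asks for at least 3 of the 9 arrays. A gene can thus pass through the tissues where it is high. On the UB arrays Hoxa7, Hoxc8 and Hoxc9 stood at 185 or below, under the array medians of 534 to 626. In this kind of bulk sample fewer cells of a type and less RNA per cell cannot be told apart.

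**Figure D1:**
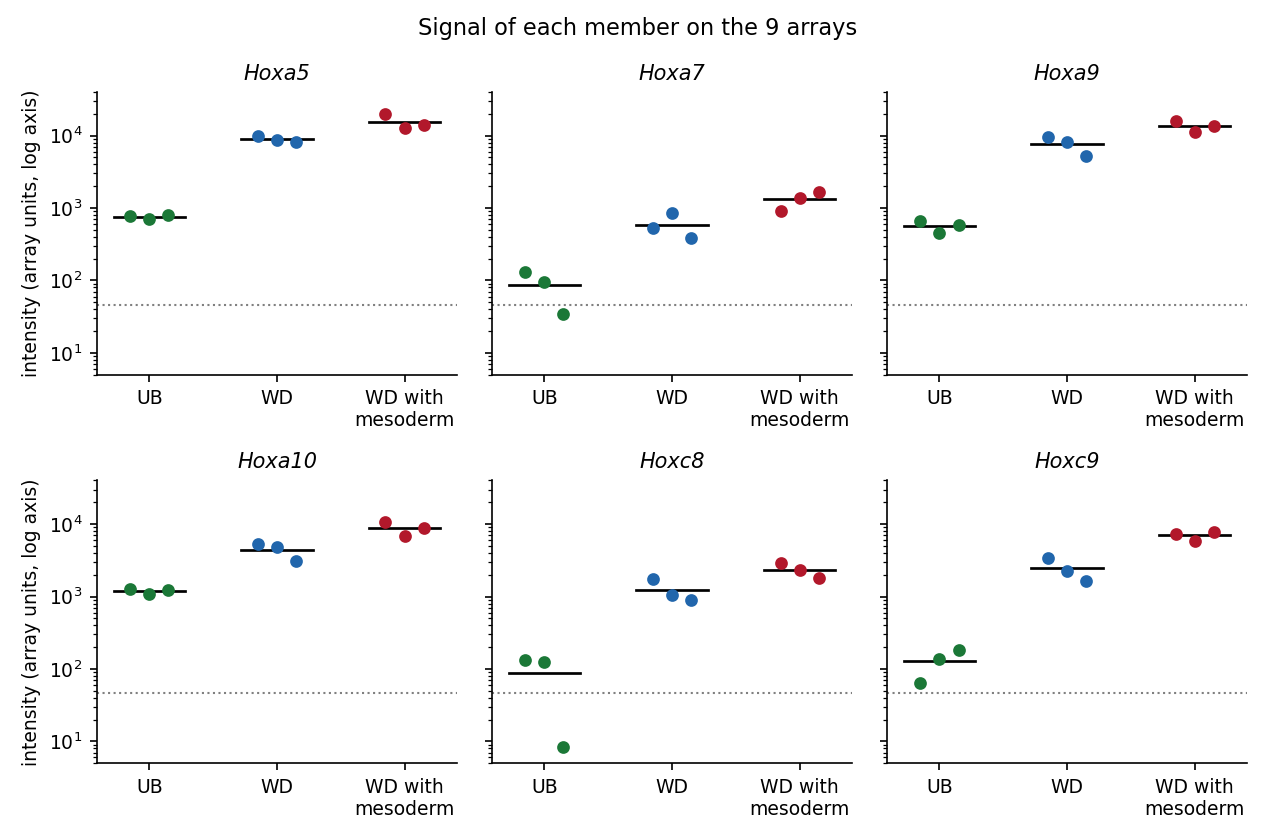
Intensity of the 6 genes on each of the 9 arrays (log axis), grouped by tissue; points are arrays, black lines the means of 3 arrays, and the dotted line the pseudocount of 46 intensity units. In every panel the UB points lie lowest and the points of WD with mesoderm highest, and UB replicate 3 lies below the dotted line for Hoxa7 and Hoxc8.

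Hoxa5, a factor known from the patterning of the neck, lung and upper trunk, had intensities of 777, 711 and 801 on the UB arrays (probe set 1370969_at). On the WD arrays it stood at 9921, 8816 and 8143, and with mesoderm at 20104, 12695 and 14066. The UB arrays were tightly grouped, and the spread widened with mesoderm, where replicate 1 was the highest. The group means were 763 ± 46.7, 8959.9 ± 897 and 15621 ± 3942 (SD, n = 3 each).

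Hoxa7, a factor of the trunk, gave a weak signal (1393992_at) of 129, 96.1 and 34.1 in the UB, 532, 855 and 382 in the WD, and 909, 1355 and 1683 with mesoderm. Its lowest array with mesoderm lay just above its highest WD array. The means were 86.5 ± 48.3, 589.9 ± 242 and 1316 ± 389 (SD, n = 3 each).

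Hoxa9, which is known for its part in the oviduct and in blood progenitors, had intensities of 652, 447 and 587 in the UB (1382612_at). The WD arrays gave 9562, 8212 and 5212, and those with mesoderm 15714, 11218 and 13437. WD replicate 3 was the lowest of the WD arrays. The means were 562 ± 105, 7662 ± 2227 and 13456 ± 2248 (SD, n = 3 each).

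Hoxa10, which patterns the uterus and the vas deferens, kept more of its signal in the UB (1398398_at). It stood at 1279.7, 1075 and 1213 there, at 5285, 4775 and 3141 in the WD and at 10639, 6833 and 8801 with mesoderm. As for Hoxa9, WD replicate 3 was the lowest WD array and replicate 1 the highest with mesoderm. The means were 1189 ± 105, 4401 ± 1120.1 and 8758 ± 1903 (SD, n = 3 each).

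Hoxc8, known for its part in the identity of brachial motor neurons and thoracic vertebrae, had UB intensities of 132, 126 and 8.31 (1371281_at). The last value is below the pseudocount and pulls the UB mean down to 88.9 ± 69.9 (SD, n = 3). The WD arrays gave 1771, 1053 and 899.5 and those with mesoderm 2901, 2295 and 1804, with means of 1241 ± 465 and 2333 ± 549 (SD, n = 3 each). WD replicate 1 lay just below the lowest array with mesoderm.

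Hoxc9, a thoracic identity factor, had intensities of 64.3, 136 and 185 in the UB (1382182_at), 3457, 2259 and 1631 in the WD, and 7221, 5868 and 7835 with mesoderm. The gap between WD and WD with mesoderm was the widest of the 6 genes on the log2 scale. The means were 128 ± 60.5, 2449 ± 928 and 6975 ± 1006 (SD, n = 3 each).

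The UB was compared with the WD to see what distinguishes the bud from the tube it grew from. All 6 genes fell, where limma called 29.9% of all probe sets in either direction and 18.6% lower in the UB, and all 6 had UB arrays wholly below the WD arrays (29.5% of probe sets). The median difference of the 6 was -3.43 on the log2(intensity + 46) scale against -0.12 over all probe sets. Hoxc9 differed by -3.84 ± 0.32 (SE, adjusted p = 4.64e-06, limma), rank 64 from the lowest of 20334. Hoxa9 differed by -3.63 ± 0.23 (adjusted p = 5.93e-07, limma) and Hoxa5 by -3.47 ± 0.18 (adjusted p = 1.10e-07, limma), ranks 82 and 100. Hoxc8 differed by -3.38 ± 0.45 (adjusted p = 2.21e-04, limma), rank 109, and by -2.82 ± 0.34 without UB replicate 3. The differences of Hoxa7 (-2.27 ± 0.43, adjusted p = 0.00235, limma) and Hoxa10 (-1.82 ± 0.22, adjusted p = 9.86e-05, limma) were smaller. The UB signals of Hoxa7, Hoxc8 and Hoxc9 are weak and cannot be told from background, so the sizes and ranks of their differences depend on the pseudocount. For Hoxc9 a pseudocount of 10 gave -4.19 and one of 100 gave -3.45. In mean intensity the WD exceeded the UB 3.70-fold for Hoxa10, whose UB signal was well above the pseudocount.

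The spiked control ratio separates all UB from all WD arrays, so a term for it rests on WD with mesoderm replicate 3 alone. With that term the calls of Hoxa5, Hoxa9, Hoxa10 and Hoxc9 were kept, while Hoxa7 differed by -2.85 ± 0.77 (adjusted p = 0.0711, limma) and Hoxc8 by -2.88 ± 0.83 (adjusted p = 0.0882, limma). When the beta-actin ratio entered as covariate, Hoxa7 differed by -1.71 ± 0.55 (adjusted p = 0.0559, limma) and the other 5 genes stayed called.

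To see what the adherent cells add, the duct with mesoderm was set against the duct alone. The genes Hoxa5, Hoxa9, Hoxa10 and Hoxc9, 4 of the 6, rose, and none fell, where limma called 5.62% of all probe sets higher and 7.06% lower with mesoderm. All 6 had arrays wholly above those of the WD (13.5% of probe sets, and 16% wholly below). The median difference was 0.96 against -0.04 over all probe sets. Hoxc9 rose by 1.55 ± 0.32 (adjusted p = 0.00687, limma), a mean intensity 2.85-fold that of the WD. Hoxa10 rose by 0.996 ± 0.22 (adjusted p = 0.0103, limma) and Hoxa5 by 0.77 ± 0.18 (adjusted p = 0.0134, limma). Hoxa9 rose by 0.84 ± 0.23 (adjusted p = 0.0328, limma). Hoxa7 (1.12 ± 0.43, adjusted p = 0.109, limma) and Hoxc8 (0.92 ± 0.45, adjusted p = 0.208, limma) did not pass, with 95% intervals of 0.19 to 2.06 and -0.06 to 1.90. These intervals hold the sizes seen for the genes that passed.

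The rise of Hoxa9 was the least firm of these calls. It was lost without WD replicate 2 (adjusted p = 0.0626, limma), without WD replicate 3 (0.59 ± 0.21, adjusted p = 0.0866), without WD with mesoderm replicate 1 (0.0948) and without its replicate 3 (0.0834). Within the 5 arrays of low spiked control ratio the differences were 0.84 for Hoxa5, 0.83 for Hoxa9, 0.98 for Hoxa10 and 1.46 for Hoxc9, near those of all arrays. Hoxa5 (adjusted p = 0.0477, limma) and Hoxc9 (0.0164) passed there, and Hoxa9 (0.0965) and Hoxa10 (0.0599) did not. The beta-actin covariate ended the calls of Hoxa5 (adjusted p = 0.162, limma) and Hoxa9 (0.0827).

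The UB was also set against the WD with mesoderm. All 6 genes fell (25.5% of all probe sets were called in either direction, 14.5% lower), and all 6 had UB arrays wholly below (22.6% of probe sets). The differences ran from -5.39 ± 0.32 for Hoxc9 (adjusted p = 1.24e-07, limma) to -2.81 ± 0.22 for Hoxa10 (adjusted p = 1.30e-06, limma), with a median of -4.27 against -0.05 over all probe sets. Between them lay Hoxa9 (-4.47 ± 0.23), Hoxc8 (-4.30 ± 0.45), Hoxa5 (-4.25 ± 0.18) and Hoxa7 (-3.39 ± 0.43). Within the 4 arrays of high spiked control ratio, the 3 UB arrays and WD with mesoderm replicate 3, all 6 stayed called, from -5.56 ± 0.51 for Hoxc9 to -2.84 ± 0.21 for Hoxa10. The lone array with mesoderm is assumed there to vary like the UB arrays. Each tissue enters 2 of the 3 comparisons, which are therefore not independent.

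**Figure D2:**
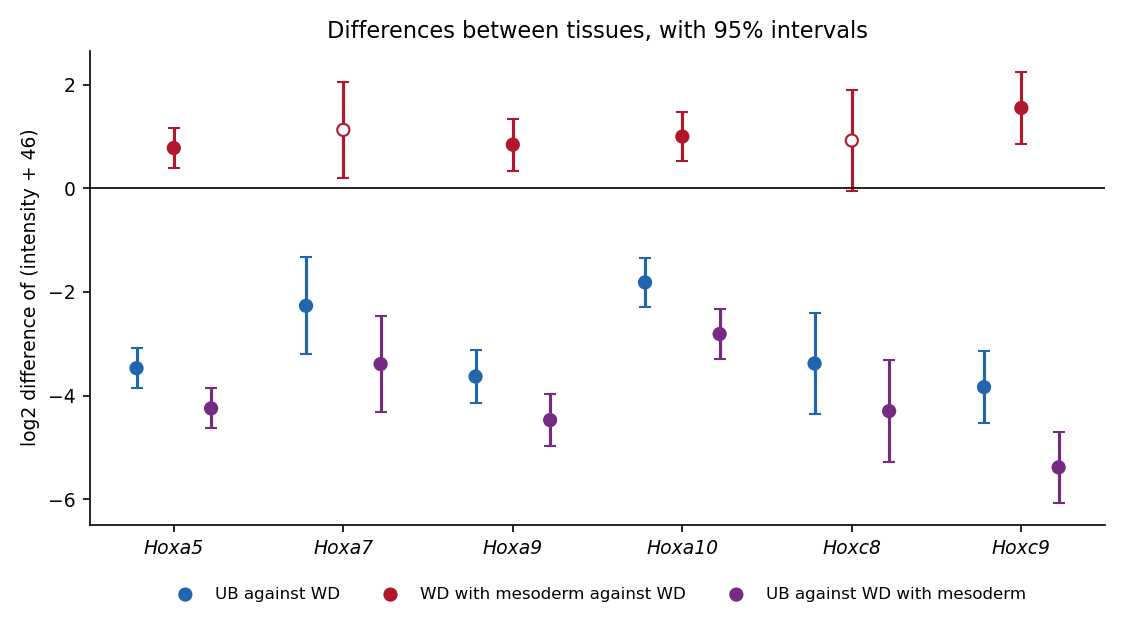
Log2 differences of the 6 genes (intensity + 46) in the 3 comparisons, first-named tissue minus second; bars are 95% intervals and filled points passed limma at an adjusted p under 0.05. All points of comparisons with the UB are filled and below 0, and the open points are Hoxa7 and Hoxc8 in WD with mesoderm against WD.

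The HoxA neighbours Hoxa9 and Hoxa10 varied together more closely than other pairs of members. Once each tissue's mean was removed, their log2 values had a Pearson r of 0.958 over the 9 arrays, against -0.368 to 0.806 for the other 14 pairs. These arrays share depth and tissue handling, and the value is a description. The log2 values of the WD arrays had an SD of 0.45 for Hoxa9 and 0.39 for Hoxa10, but the difference between both genes on an array had an SD of 0.06. That difference, Hoxa9 minus Hoxa10, was -1.03 ± 0.14 in the UB, 0.78 ± 0.06 in the WD and 0.63 ± 0.08 with mesoderm (SD, n = 3 each). Hoxa9 was thus lower in the UB by 1.82 more log2 units than Hoxa10. This pair was chosen after the values had been seen, and an exact two-sided permutation test (p = 0.10, 0.109 adjusted over the 12 such tests computed) cannot go lower with 3 against 3 arrays.

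The named genes most like each member over the 9 arrays were sought among 10802 genes tested. For Hoxa5 they were Hoxa9 (r = 0.995), the cadherin gene Cdh22 (0.995) and the transcription factor gene Bcl11a (0.994). For Hoxa9 they were N-cadherin, Cdh2 (0.996), Wwc3 (0.995) and Hoxa5. For Hoxa10 they were Tspan8 (0.996), Anxa3 (0.995) and Colec12 (0.991), and for Hoxa7 Tle1 (0.989), Nab2 (0.989) and Tro (0.984). For Hoxc8 they were the hedgehog effector Gli2 (0.991), P4ha3 (0.986) and the receptor gene Pdgfrb (0.983), and for Hoxc9 Zeb1 (0.994), Ltbp4 (0.994) and Bgn (0.993). These r values span tissues as well as replicates and are a description.

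Other genes of both clusters were examined beside the members, and some HoxA probe sets shared part of the tissue order. Of 14 further HoxA and HoxC genes listed, 3 had a probe set with a single symbol (Hoxa11, Hoxc4 and Hoxc5), and all were tested. The probe set of Hoxa11 was named by its platform symbol alone. It did not match the Hoxa11 entry of the gene table by Entrez ID. Hoxc5, in the HoxC cluster on the head side of Hoxc8, had a mean intensity of 7416 ± 1132 in the UB, 7755 ± 2041 in the WD and 4894 ± 149 with mesoderm (SD, n = 3 each). It differed by -0.04 ± 0.18 between UB and WD (adjusted p = 0.88, limma) and fell by 0.63 ± 0.18 with mesoderm (adjusted p = 0.0438, limma). That call was lost with median centring, the spiked control term and the beta-actin covariate (adjusted p = 0.188, 0.107 and 0.339, limma). Hoxc4 had 2 probe sets, of which only the brighter passed the test. It fell by 0.59 ± 0.19 in the UB against the WD (adjusted p = 0.0364, limma) and by 0.76 ± 0.19 with mesoderm (adjusted p = 0.0216, limma). Both calls were lost with median centring (adjusted p = 0.717 and 0.107, limma), the spiked control term (0.379 and 0.0518) and the beta-actin covariate (0.233 and 0.287). The other differed by -0.30 ± 0.36 and -0.22 ± 0.36, of the same sign and with 95% intervals that hold the values of the brighter.

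Hoxa11, the next gene after Hoxa10, differed by -0.24 ± 0.30 between UB and WD (adjusted p = 0.56, limma) and by 0.76 ± 0.30 with mesoderm (adjusted p = 0.117, limma), where its arrays lay wholly above those of the WD. It differed by -1.002 ± 0.30 in the UB against the WD with mesoderm (adjusted p = 0.0262, limma). That call was lost with quantile normalization, median centring and the spiked control term (adjusted p = 0.128, 0.124 and 0.212, limma). It was kept with the beta-actin covariate (adjusted p = 0.0318, limma). Of the other probe sets in the HoxA cluster, named after their values were seen, Hoxa3l1 fell by 1.81 ± 0.30 in the UB against the WD (adjusted p = 0.00104, limma; 0.0699 with the spiked control term) and differed by 0.01 ± 0.30 with mesoderm. Against the WD with mesoderm the UB value of Hoxa3l1 differed by -1.82 ± 0.30 (adjusted p = 7.07e-04, limma; 0.0113 with the spiked control term). The antisense RNA Hoxa11-as differed by -0.90 ± 0.42 in the UB against the WD (adjusted p = 0.121, limma), by 0.31 ± 0.42 with mesoderm, and by -1.21 ± 0.42 in the UB against the WD with mesoderm (adjusted p = 0.0514, limma). Its UB arrays lay wholly below those of both other tissues.

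Differences within an array between a member and another gene of its cluster are given as a description. The log2 value of Hoxc8 minus that of Hoxc5 differed by -3.34 between the UB and the WD and by 1.55 between the WD with mesoderm and the WD. Hoxc9 minus Hoxc4 gave -3.25 and 2.31. For Hoxa10 minus Hoxa11 the values were -1.57 and 0.24. These pairs were chosen after the values had been seen, and 3 against 3 arrays cannot give an exact permutation p below 0.10, so no test supports them.

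**Figure D3:**
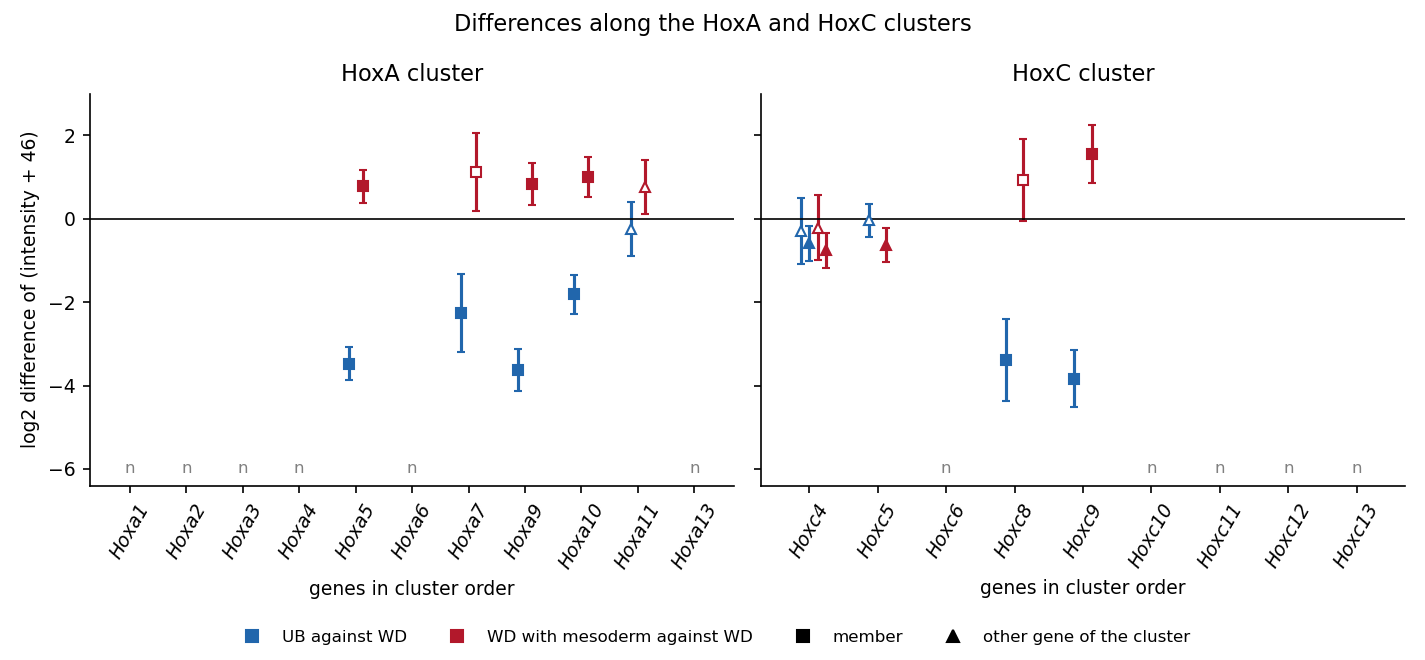
Log2 differences (intensity + 46) along the HoxA and HoxC clusters for UB against WD and WD with mesoderm against WD, genes in order from head to tail side; bars are 95% intervals, filled symbols passed limma at an adjusted p under 0.05, and n marks genes without a probe set used here. Members (squares) lie below 0 for UB against WD and above 0 with mesoderm, whereas Hoxc4 and Hoxc5 (triangles) lie at or below 0 in both. The triangles of Hoxa11 have the signs of the members but are open. Hoxa3l1 and Hoxa11-as are not drawn.

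The HoxB and HoxD genes gave another contrast, though Hoxd10 had the order of the members. Of 11 such genes tested, 2 rose and 4 fell between WD and UB, 1 and 4 with quantile normalization and 6 and 0 with median centring. The spiked control term left 0 higher and 0 lower calls there, and the beta-actin covariate 1 and 0. With mesoderm 1 rose and 8 fell against the WD, with a median of -1.06 where that of the 6 members was 0.96. These counts were 0 and 7 with median centring, 0 and 8 with the spiked control term and 0 and 3 with the beta-actin covariate. Hoxb6 had mean intensities of 26656 ± 2813 in the UB, 20838 ± 4833 in the WD and 6380 ± 506 with mesoderm (SD, n = 3 each) and fell by 1.68 ± 0.16 with mesoderm (adjusted p = 7.67e-05, limma). Hoxd8 (-1.18 ± 0.13), Hoxb4 (-1.12 ± 0.20) and Hoxd1 (-1.50 ± 0.26) fell likewise, the calls of Hoxb4 and Hoxd1 being lost with the beta-actin covariate (adjusted p = 0.0561 and 0.153, limma). Hoxd10, named after its values were seen, had means of 1184 ± 223 in the UB, 2362 ± 363 in the WD and 3979 ± 821 with mesoderm (SD, n = 3 each). Its arrays did not overlap between tissues. Hoxd3, Hoxd4 and Hoxd9 also had UB arrays wholly below the WD arrays, though their means with mesoderm were below those of the WD. Whether the HoxB and HoxD list differs from the 6 members was not tested as a list.

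The list of TALE genes and cofactors, which includes the Hox partners of the Pbx and Meis families, was in part ordered like the members. It also held Tgif1, Tgif2 and Pbxip1, which belong to neither family. Of 11 tested, 1 rose (Tgif1) and 6 fell in the UB against the WD, and 4 rose and 0 fell with mesoderm, where 7 did not pass. The medians were -1.07 and 0.14. With median centring 2 rose and 5 fell in the UB against the WD. The counts there were 0 and 6 with quantile normalization, 0 and 2 with the spiked control term and 0 and 5 with the beta-actin covariate. Meis1 had mean intensities of 2792 ± 719 in the UB, 24307 ± 2207 in the WD and 48618 ± 2286 with mesoderm (SD, n = 3 each). It fell by 3.13 ± 0.18 in the UB against the WD (adjusted p = 2.07e-07, limma) and rose by 1.002 ± 0.18 with mesoderm (adjusted p = 0.00273, limma). Meis2 (-1.67 ± 0.19 and 1.54 ± 0.19), Pbx3 (-1.21 ± 0.15 and 1.41 ± 0.15) and Pknox2 (-1.70 ± 0.32 and 1.59 ± 0.32) changed in the same directions. The call of Pknox2 in the UB was lost with quantile normalization (-1.03 ± 0.35, adjusted p = 0.0508, limma), and with the spiked control term so were those of Pknox2 and Pbx3 (adjusted p = 0.207 and 0.0802, limma). The beta-actin covariate ended the call of Pknox2 with mesoderm (1.68 ± 0.50, adjusted p = 0.0915, limma).

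A further list joined known inducers of Hox expression with enzymes that break down the inducer retinoic acid. Of its 8 genes tested, 0 rose and 3 fell in the UB against the WD (18.6% of all probe sets fell). The counts there were 1 and 3 with quantile normalization, 2 and 2 with median centring and 0 and 2 with the spiked control term. With mesoderm 1 rose and 1 fell. Aldh1a2, which makes retinoic acid, fell by 3.71 ± 0.20 in the UB (adjusted p = 1.54e-07, limma) but differed by 0.39 ± 0.20 with mesoderm (adjusted p = 0.235, limma). Cyp26b1, which breaks retinoic acid down, fell by 1.47 ± 0.20 in the UB and differed by -0.26 ± 0.20 with mesoderm. The retinoic acid receptor Rara fell by 1.09 ± 0.22 in the UB, a call lost with median centring and with the spiked control term (adjusted p = 0.0738 and 0.162, limma). Gdf11, a secreted factor of tail patterning, fell by 0.59 ± 0.17 with mesoderm (adjusted p = 0.0377, limma). That call was lost with median centring and the beta-actin covariate (adjusted p = 0.241 and 0.569, limma).

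Most listed chromatin regulators of Hox clusters were not called, 14 of 20 in UB against WD and 18 with mesoderm. The list of Polycomb and trithorax genes also held Ctcf, which belongs to neither group. Of the 20 tested, 4 rose and 2 fell in the UB against the WD, and 9 and 0 with median centring. With mesoderm 0 rose and 2 fell. The Polycomb subunits Suz12 (0.84 ± 0.22) and Ezh2 (0.52 ± 0.12) rose in the UB, and Ezh1 fell (-0.63 ± 0.16). All 3 calls were lost with the spiked control term (adjusted p = 0.349, 0.465 and 0.127, limma). Cbx7 fell by 1.24 ± 0.31 with mesoderm (adjusted p = 0.0201, limma; 0.0759 with the spiked control term).

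Among kidney genes that act with Hox factors in the mesenchyme, 0 of 5 tested rose and 2 fell in the UB against the WD, and 2 rose and 1 fell with mesoderm. Itga8, an integrin chain of the kidney mesenchyme, fell by 3.39 ± 0.18 in the UB (adjusted p = 1.25e-07, limma) and rose by 1.77 ± 0.18 with mesoderm (adjusted p = 1.11e-04, limma). Wt1 fell by 4.13 ± 0.22 and rose by 1.15 ± 0.22. Pax2, a duct factor too, differed by 0.29 ± 0.21 in the UB and fell by 1.82 ± 0.21 with mesoderm. Eya1 differed by -0.57 ± 0.28 and 0.10 ± 0.28.

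Markers of mesenchyme had group means in the same order as the 6 Hox genes, but the arrays of some overlapped between tissues. Lum and Dcn overlapped between the WD and the WD with mesoderm, and Prrx1 between the UB and the WD. Of 11 tested, 0 rose and 10 fell in the UB against the WD, with a median of -3.31 beside -3.43 for the members. With mesoderm 7 rose and 0 fell against the WD, with a median of 1.35 beside 0.96. Col1a1, a chain of collagen I, differed by -4.58 ± 0.19 and 1.62 ± 0.19, and Dcn, a matrix proteoglycan, by -5.09 ± 0.21 and 0.29 ± 0.21. Of 9 endothelial genes, 0 rose and 5 fell in the UB against the WD. The lower calls were 1 with quantile normalization, 4 with median centring, 0 with the spiked control term and 1 with the beta-actin covariate. With mesoderm 8 rose, and 6 with the beta-actin covariate. Their summed signal was 1744 to 2712 in the UB, 4369.6 to 5401 in the WD and 36299 to 38008 with mesoderm. Duct epithelium genes moved otherwise. Of 11, 3 rose and 3 fell in the UB and 11 fell with mesoderm, and their summed signal was 233739 to 252567 in the UB, 223150 to 240984 in the WD and 63587 to 97099 with mesoderm. The part of the share of mesenchyme cells in the Hox differences was not tested.

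**Figure D4:**
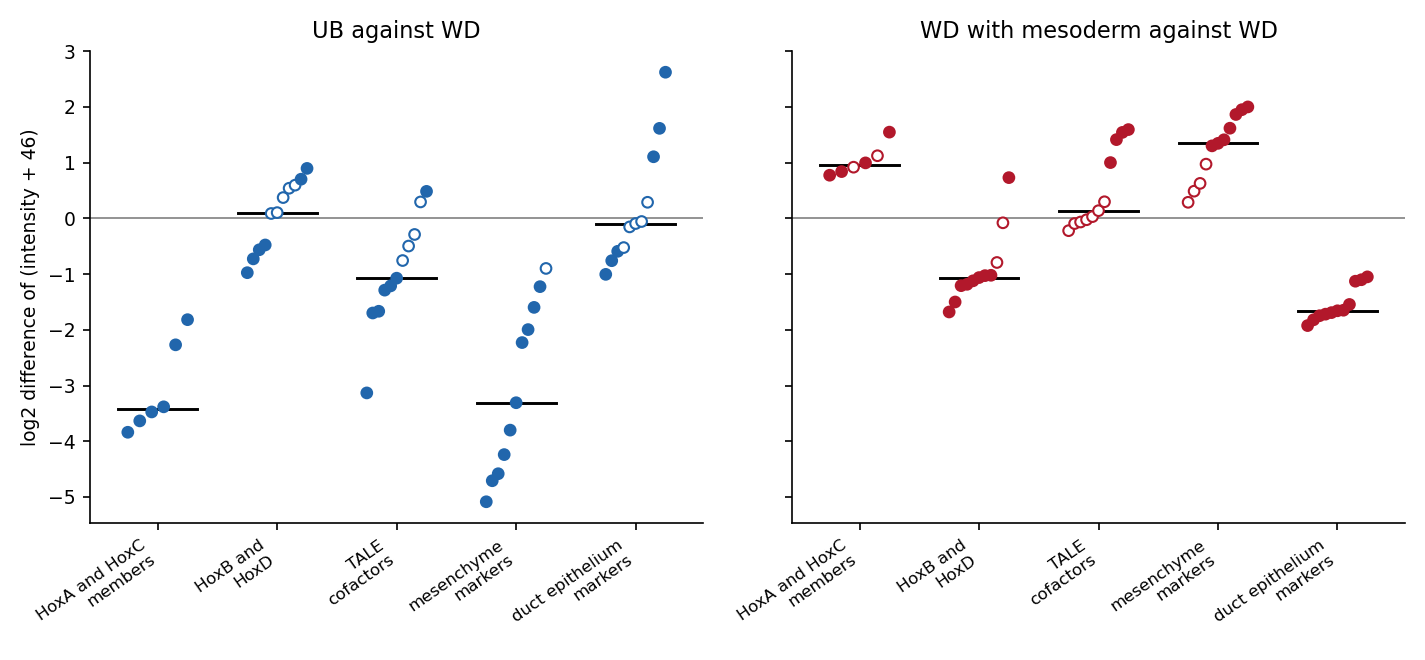
Log2 differences (intensity + 46) of the tested genes of 5 lists in UB against WD and WD with mesoderm against WD; each point is a gene, sorted within its list, filled where limma passed at an adjusted p under 0.05, and black lines are medians. The 6 members and the mesenchyme markers lie mostly below 0 at left and above 0 at right, while HoxB and HoxD genes and duct epithelium markers lie mostly below 0 at right.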

How the data were processed

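The deposited table gives 1 intensity per probe set and array, on a linear scale, from biotin-labelled RNA on single-colour arrays, per the labels' protocols. Per the submitters' processing notes the authors used GCOS; its version and settings are not stated in the labels. The deposited intensities share 1 trimmed mean. Without detection calls weak signals cannot be told from background. Precision is limited by the number of arrays.

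Probe sets were named through the platform annotation and, by Entrez ID, the GRCr8 gene table (20758 of 20826 with 1 symbol matched, all 6 members among them). Probe sets with 1 symbol but no match, that of Hoxa11 among them, kept the platform symbol. Gene table positions were used only for order. A gene was represented by its brightest probe set. Values were taken as log2(intensity + 46), the 10th percentile. Probe sets above the 40th percentile of their array on at least 3 arrays were tested with limma 3.58.1 in R 4.3.3 (all 9 arrays, group as the only term, mean-variance trend, 6 residual and 6.09 prior degrees of freedom). P-values were two-sided, adjusted by Benjamini-Hochberg over 20334 probe sets, and called under 0.05. Lists are described by counts and medians. The procedure was tested on simulated data.

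The named genes were the 6 members, the 3 genes most like each, and up to 4 genes with the smallest p from each pathway or family list. Members and lists were chosen with earlier results of these data known. Lists of nephron progenitor, red cell, macrophage, neuron and crest and skeletal muscle markers were also computed. Alternatives were other scalings, pseudocounts, filters and variance models, array weights, 2 groups alone, the replicate number as a block, the mean of probe sets, the spiked control ratio, the beta-actin ratio, and leaving out each array.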

Additional observations from a re-analysis of the deposited data

How the results depend on the processing

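The direction of all 6 genes held in the 3 comparisons under every alternative run. Of 113 alternative values for single genes in UB against WD, 110 stayed on the same side of the threshold and 3 lost their call (Hoxa7 and Hoxc8 with the spiked control term, Hoxa7 with the beta-actin covariate). In WD with mesoderm against WD 108 of 119 did so and 11 lost a call, 9 of them for Hoxa9, and in UB against WD with mesoderm all 119 stayed. In WD with mesoderm against WD 2 of the 6 genes were called within the arrays of like spiked control ratio and 2 with the beta-actin covariate, in place of 4. Leaving out 1 array gave 6 called genes in each comparison with the UB and 3 to 4 in the other. With the filter at the 60th percentile Hoxa7 was not tested. A pseudocount of 10 or 100 gave Hoxc8 differences of -4.08 and -2.86 in UB against WD. UB and WD arrays never share a spiked control class, so no fit within a class was possible for that comparison.

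With the replicate number as a block (replicate block) 6, 4 and 6 genes were called, and 5338 of all probe sets in UB against WD in place of 6073. The deviations of same-numbered arrays of different tissues had correlations of -0.348 to 0.277, and those of differently numbered arrays -0.261 to 0.299. These few values cannot settle whether the numbers pair the arrays, and the labels do not say. Over all probe sets, UB against WD had 798 calls with the spiked control term, 3276 with the beta-actin covariate and 3742 without UB replicate 1. WD with mesoderm against WD had 2577, 1444 within the class and 826 with the covariate, and UB against WD with mesoderm 5177, 2414 with the term and 2992 within the class. The median of all differences in UB against WD was -0.12, 0.04 with quantile normalization and 0.34 with median centring, and the calls split into 2297 higher and 3776 lower, 2527 and 2433, and 5836 and 1530. In UB against WD with mesoderm the split was 2228 and 2949, or 4610 and 1793 with median centring, and in WD with mesoderm against WD 1142 and 1435, or 1242 and 923. Weak signals of Hoxa7, Hoxc8 and Hoxc9 in the UB limit the precision of their differences.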

Other observations

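Values of the remaining marker lists are given here, as counts called by limma. Of 6 red cell genes tested, 0 rose and 4 fell in the UB against the WD, and 2 fell with the spiked control term. None of the 6 passed in WD with mesoderm against WD. Of 7 macrophage genes, 0 rose and 5 fell in the UB against the WD, but the spiked control term gave 0 lower calls, quantile normalization 2 and median centring 3. Of 6 nephron progenitor genes, 2 rose and 2 fell in the UB, 0 and 2 with the spiked control term, and 4 rose and 0 fell with mesoderm. Of 3 neuron and crest genes tested, 2 rose and 1 fell in the UB, 1 and 0 with the spiked control term and 2 and 0 with quantile normalization or median centring. The single skeletal muscle gene tested did not pass in either comparison with the WD, but fell in the UB with the beta-actin covariate.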
